A study of Mus musculus with 2 samples.

Results

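The genes followed encode 10 secreted fibroblast growth factors (FGFs) known from the developing face: Fgf2, Fgf3, Fgf4, Fgf8, Fgf9, Fgf10, Fgf15, Fgf17, Fgf18 and Fgf20. They were taken by symbol, matched through the gene identifiers of the expression tables, and all 10 were found among 42462 named genes. Transcript levels came from total RNA-seq of embryonic facial prominence, the swellings of neural crest mesenchyme and covering ectoderm that build the face, from B6NCrl mice at embryonic day 10.5. The study had 1 group of 2 biological replicates, each a pool of male and female embryos described as healthy, with 69 embryos in replicate 1 and 51 in replicate 2. No treatment, mutant allele or second tissue was named in the labels, so every comparison is between genes, between transcripts or between the 2 pools. No p-value is given, because a permutation of 2 values against 2 cannot go below 0.33.

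FGF ligands are secreted signals that bind FGF receptor tyrosine kinases together with heparan sulfate or, for the endocrine subfamily, with a Klotho protein. Receptor activation leads through the adaptor Frs2 to Ras and the MAP kinase cascade, and cells that receive the signal switch on feedback inhibitors and Etv transcription factors. In the early face, ectoderm is a source of Fgf8, whose product sustains the underlying crest-derived mesenchyme, while Fgf10 is a mesenchymal ligand for the epithelial form of Fgfr2.

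Expected counts came to 41492881 for replicate 1 and 41153413 for replicate 2, with 40059176 and 39531700 on genes. All 8 facial mesenchyme markers and all 8 surface ectoderm markers were detected, at summed levels of 995 and 920.5 TPM (transcript abundance per length, scaled to the same total in each library) for mesenchyme and 341 and 349 TPM for ectoderm in replicates 1 and 2. Markers of other tissues were present as well, and some lists differed between the pools. The 6 heart markers summed to 15.1 TPM in replicate 1 and 45.5 in replicate 2, and the 5 hindbrain segment markers to 18.9 and 41.2.

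Fgf8 was the most abundant of the 10 genes, followed by Fgf15, and 4 of the genes lay below 1 TPM in at least 1 pool. Detection required 1 TPM or more in each pool. By that rule 6 of the 10 genes were detected, Fgf8, Fgf15, Fgf10, Fgf17, Fgf9 and Fgf18, against 58.2% of all named protein coding genes, so the share detected was near the background. The median level of the 10 genes was 3.85 TPM, beside 3.57 TPM over all named protein coding genes. Their summed level was 77.1 TPM in replicate 1 and 63.9 TPM in replicate 2.

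**Figure D1:**
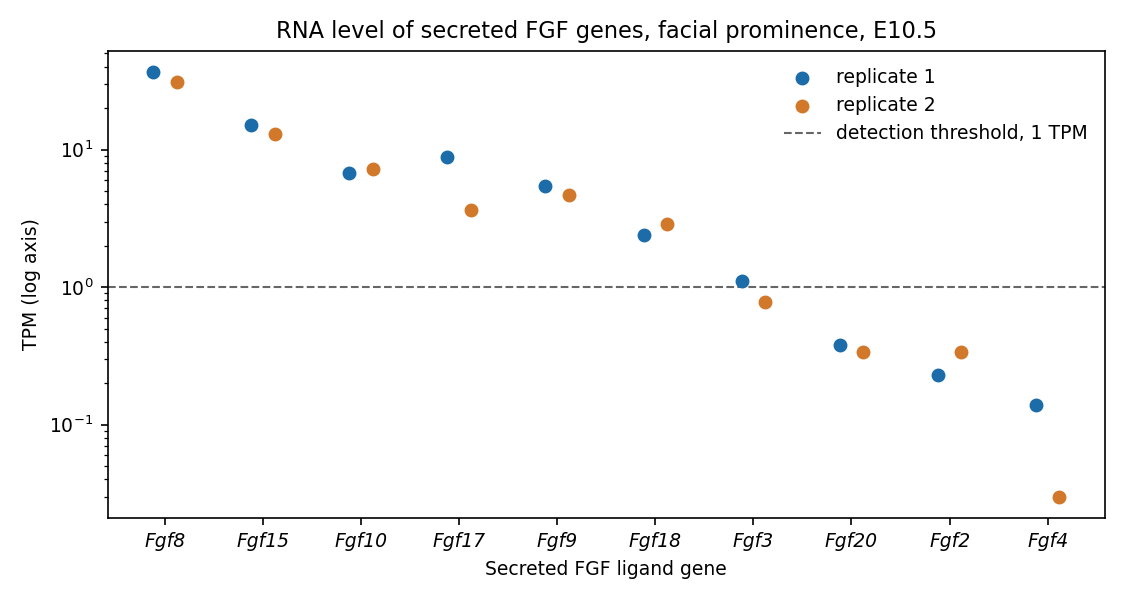
TPM of the 10 ligand genes (log axis) in replicate 1 and replicate 2, 1 point a pool, ordered by mean, with the detection threshold of 1 TPM as a dashed line. Fgf8 lies highest at 36.7 and 31.0 TPM, Fgf17 shows the widest gap among the 6 detected genes, and Fgf3 straddles the threshold.

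Fgf8, Fgf17 and Fgf18 form the FGF8 subfamily, whose products act mainly on the mesenchymal splice forms of the receptors. Together they made up 60.5% of the summed TPM of the 10 genes (62.2% in replicate 1 and 58.8% in replicate 2). Fgf8 (ENSMUSG00000025219, chr19:45736798-45742915, minus strand, mm10), the main survival and patterning signal of the facial ectoderm, stood at 36.7 TPM in replicate 1 and 31.0 TPM in replicate 2, from 837 and 691 counts. Its mean was 33.9 ± 3.98 TPM (SD, n = 2), at percentile 78.9 of named protein coding genes, and it alone held 47.6% and 48.6% of the summed TPM of the ligand genes (48.1% ± 0.716, SD, n = 2). The share was thus almost the same in both pools although the level was lower in replicate 2.

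Fgf8 is known for alternative splicing near its start, which changes the amino end of the secreted protein. The tables listed 6 transcripts of it. Of these, 5 start their coding part in the same first coding exon and differ in the coding bases between the second coding exon and the exon that follows. The spliced sequences around that junction are shown for 4 of them, because the bases that differ are what separates the protein forms. They are GENCODE M21 transcripts on GRCm38 (mm10), read on the minus strand of chromosome 19 between 45741626 and 45742536, with 21 shared bases on each side in lower case and, in capitals, the bases absent from the shortest form, Fgf8-205.
Fgf8-205: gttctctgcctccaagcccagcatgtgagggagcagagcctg
Fgf8-206: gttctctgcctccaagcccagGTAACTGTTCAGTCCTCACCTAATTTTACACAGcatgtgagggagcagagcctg
Fgf8-204: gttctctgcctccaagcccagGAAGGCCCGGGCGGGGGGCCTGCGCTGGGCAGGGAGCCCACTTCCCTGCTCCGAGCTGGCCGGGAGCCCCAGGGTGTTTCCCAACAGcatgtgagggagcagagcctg
Fgf8-202: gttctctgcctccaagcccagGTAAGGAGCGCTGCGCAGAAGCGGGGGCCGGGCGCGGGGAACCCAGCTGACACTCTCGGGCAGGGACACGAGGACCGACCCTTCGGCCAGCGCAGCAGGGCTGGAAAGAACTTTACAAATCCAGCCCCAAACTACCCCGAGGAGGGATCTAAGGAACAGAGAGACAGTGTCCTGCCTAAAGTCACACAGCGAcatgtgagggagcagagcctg

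The capitals of Fgf8-206 are a 33-base extension of the following exon at its 5′ end (chr19:45741647-45741679), which adds 11 codons. Those of Fgf8-204 are an 87-base exon of its own (chr19:45741911-45741997, 29 codons). Those of Fgf8-202 are a 192-base extension of the second coding exon at its 3′ end (chr19:45742324-45742515, 64 codons). Fgf8-201 carries the 87-base exon followed by the 33-base extension. The coding parts run from 204 codons in Fgf8-205, the form known as Fgf8a, through 215 in Fgf8-206, known as Fgf8b, 233 in Fgf8-204 and 244 in Fgf8-201 to 268 in Fgf8-202. The product of Fgf8b is known to bind the receptors more tightly than that of Fgf8a.

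Fgf8-206 had the highest level of the 6 transcripts in both pools, at 10.7 TPM in replicate 1 and 9.39 TPM in replicate 2, or 29.2% and 30.3% of the gene (29.7% ± 0.735, SD, n = 2). Its deposited intervals were 7.61 to 13.4 TPM in replicate 1 and 6.26 to 12.2 TPM in replicate 2. They overlapped those of Fgf8-202 and Fgf8-203 in both pools, that of Fgf8-201 in replicate 1 and that of Fgf8-205 in replicate 2. Only the intervals of Fgf8-204 lay below those of Fgf8-206 in both pools. Fgf8-202 held 19.2% and 15.3% of the gene in replicates 1 and 2. Fgf8-201 held 15.2% and 11.2%. Fgf8-204, which has the 87-base exon without the 33-base extension, was the lowest form in both pools at 5.6% and 6.28%. Fgf8-205 was the only one of the 6 with the higher TPM in replicate 2, at 4.22 TPM in replicate 1 and 6.34 TPM in replicate 2, or 11.5% and 20.4% of the gene. The intervals deposited with those TPM values, 2.34 to 6.73 and 4.10 to 9.04, overlapped.

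Fgf8-203 starts its coding part inside the later exon and has 420 coding bases, in the same frame as the other transcripts and with the same end. It was given 19.3% and 16.6% of the gene. Its deposited intervals were the widest of the 6 transcripts, from 1.86 to 11.4 TPM in replicate 1 and from 0.0484 to 8.21 TPM in replicate 2. Shares were also summed over the transcripts that hold a stretch. The 33-base extension was in 63.7% of Fgf8 transcripts in replicate 1 and 58.1% in replicate 2 (60.9% ± 4.00, SD, n = 2). In Fgf8-203 it lies ahead of the coding start, so it adds codons only in Fgf8-201 and Fgf8-206. Those 2 together were at 16.3 and 12.9 TPM, beside 36.7 and 31.0 TPM for the gene. With Fgf8-203 left out of the total, they held a mean of 52.4%. The 87-base exon was in 20.8% and 17.5%. The annotated transcripts, of 630 to 1168 bases, also differ at their outer ends, so these shares rest on reads over the ends as well as over the junctions.

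**Figure D2:**
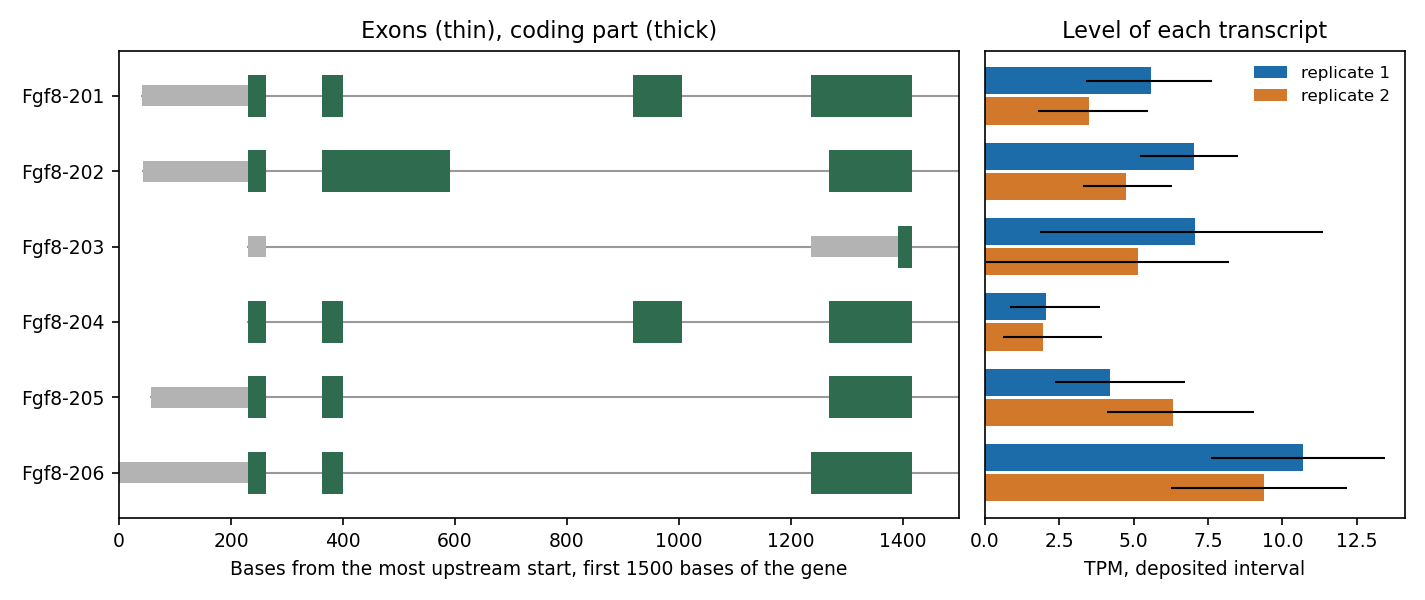
Left, exons (thin) and coding parts (thick) of the 6 Fgf8 transcripts over the start of the gene, in bases from the most upstream start. Right, TPM of each transcript in replicates 1 and 2 with the deposited intervals as lines: Fgf8-206 is highest in both pools, and the intervals of the pools overlap for each transcript.

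Fgf17 (ENSMUSG00000022101, chr14:70636203-70642268, minus strand), known in the embryo from the rostral forebrain and the midbrain-hindbrain border, was the gene that differed most between the pools among those with enough counts to compare. It stood at 8.89 TPM in replicate 1, with a deposited interval of 7.86 to 9.63, and at 3.63 TPM in replicate 2, with an interval of 3.01 to 4.14. These intervals did not overlap. From 374 and 152 counts, it was 2.38-fold higher in replicate 1 on the scale of TMM-normalised counts (a log2 ratio of replicate 2 over replicate 1 of -1.25), and the exact binomial interval of the count ratio, which covers counting error only, ran from 1.98 to 2.91. Over all named genes with mean counts of 50 or more, the central 95% of the same log2 ratio lay between -0.60 and 0.50.

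Fgf17 was the only one of the 7 ligand genes with mean counts of 50 or more that was at least 2-fold apart. Over all 14038 named genes of such counts 1.24% were at least 2-fold apart in either direction, and 0.684% were at least 2-fold higher in replicate 1. In a pooled tissue, fewer cells of a type and less RNA per cell cannot be told apart. Forebrain markers did not move as 1 group. Nkx2-1 stood at 7.62 TPM in replicate 1 and 3.66 TPM in replicate 2, Six3 at 11.1 and 7.34 and Emx2 at 10.2 and 6.69. Hes5 stood at 71.2 and 126 TPM, and the whole list of 7 genes, 6 of them detected, summed to 112 and 153 TPM. Without Hes5 the sum was 40.8 TPM in replicate 1 and 27.1 TPM in replicate 2, lower in replicate 2 as Fgf17 was, and the median log2 ratio of the list was -0.50. Of the midbrain-hindbrain border list 1 of 7 genes was detected, the sum was 10.7 and 15.5 TPM, and the defining genes En1 and En2 were at 0.25 and 0.01 TPM in replicate 1 and at 0.39 and 0.04 TPM in replicate 2. The olfactory placode list, which shares genes with the forebrain list and had all 7 genes detected, summed to 61.6 and 58.1 TPM. The part of these tissues in the difference of Fgf17 was not tested.

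Fgf18 (ENSMUSG00000057967, chr11:33117430-33147400, minus strand), a ligand known from cartilage, bone and palate, was the lowest of the detected genes. It stood at 2.38 TPM in replicate 1 and 2.88 TPM in replicate 2 (2.63 ± 0.354, SD, n = 2), from 60 and 75 counts. The log2 ratio of replicate 2 over replicate 1 was 0.35, and the deposited intervals of 1.81 to 3.01 and 2.29 to 3.61 overlapped. Of its 2 transcripts, Fgf18-201 led in both pools. The shorter Fgf18-202 was given 37.4% of the gene in replicate 1 and 0% in replicate 2. In replicate 1 its deposited interval of 0.0110 to 1.83 TPM overlapped the 0.548 to 2.45 TPM of Fgf18-201, so 60 counts did not separate the 2 forms. In replicate 2 its interval of nearly 0 to 1.28 TPM lay below the 1.55 to 3.31 TPM of Fgf18-201.

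Fgf15 is the mouse counterpart of human FGF19 and the only endocrine-subfamily gene among the 10, best known as the intestinal hormone that restrains bile acid synthesis and, in the embryo, from neural and pharyngeal tissue. Fgf15 (ENSMUSG00000031073, chr7:144896531-144900953, plus strand) stood at 15.0 TPM in replicate 1 and 12.9 TPM in replicate 2 (13.98 ± 1.499, SD, n = 2), or 19.9% of the summed TPM. It was the second gene in both pools. An antisense gene, Gm26793, overlaps it by 931 bases and held 71.5 and 57.9 counts beside the 681 and 582 of Fgf15. The sources used here do not say if reads were counted by strand, and reads of the overlap may be mixed.

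Fgf10 and Fgf3 belong to the FGF7 subfamily, whose products act on the epithelial splice forms of the receptors. Fgf10 (ENSMUSG00000021732, chr13:118669791-118792115, plus strand), a mesenchymal signal to epithelium that limbs, lungs and facial glands require, stood at 6.78 TPM in replicate 1 and 7.21 TPM in replicate 2 (6.995 ± 0.304, SD, n = 2), from 722 and 750 counts. Its coding transcript Fgf10-201 held 100% and 98.2% of the gene. Fgf3 (ENSMUSG00000031074, chr7:144838083-144844436, plus strand), known for its part in inner ear formation, stood at 1.11 TPM in replicate 1 and 0.78 TPM in replicate 2 and so fell on both sides of the detection threshold. Its 65 and 36 counts gave a log2 ratio of replicate 2 over replicate 1 of -0.78, with a counting interval of 1.15 to 2.72 for replicate 1 over replicate 2. That is the largest ratio after Fgf17 among the 7 genes compared, and it is under 2-fold. The otic vesicle list moved the other way, at 8.95 TPM in replicate 1 and 22.3 TPM in replicate 2 over 5 genes. Of these 1, Oc90, was detected by the rule, with a higher level in replicate 2 (6.87 and 17.5 TPM). The pharyngeal endoderm list of 7 genes moved the same way as Fgf3, at 26.3 and 19.9 TPM, with a median log2 ratio of -0.40. Within it Foxa2 (0.43) and Sox17 (0.08) had ratios above 0. The part of these tissues in the value of Fgf3 was not tested.

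Fgf9 and Fgf20 form the FGF9 subfamily. Fgf9 (ENSMUSG00000021974, chr14:58070547-58112720, plus strand), an epithelial signal to mesenchyme in lung and other organs, stood at 5.44 TPM in replicate 1 and 4.70 TPM in replicate 2 (5.07 ± 0.523, SD, n = 2). Its transcript Fgf9-201, which has 624 coding bases, held 72.0% and 75.0% of the gene, and Fgf9-203, with 273, held 25.8% and 24.96%. Fgf20 (ENSMUSG00000031603, chr8:40279166-40308331, minus strand), known from the inner ear and the tooth, was at 0.38 and 0.34 TPM. These levels came from 14 and 7.29 counts, so nearly equal TPM values stood beside counts that differed by a factor of 1.95 with an interval of 0.735 to 5.70. The difference lies in the effective length the authors' estimate gave the gene, 1377 bases in replicate 1 and 823 in replicate 2, because in replicate 2 a share of 62.3% went to the short transcript Fgf20-202 and in replicate 1 none did.

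Fgf2, of the FGF1 subfamily, and Fgf4, of the FGF4 subfamily, were the lowest of the 10 by mean TPM. Fgf2 (ENSMUSG00000037225, chr3:37348346-37410108, plus strand), which leaves cells without a classical signal peptide, was at 0.23 TPM in replicate 1 and 0.34 TPM in replicate 2, from 4 and 2 counts. The higher TPM went with the fewer counts, and the effective length here too differed between the pools: it was 655 bases in replicate 1 and 223 in replicate 2. The authors' posterior mean for Fgf2 was 0.87 and 0.91 TPM, and the interval deposited with that estimate in replicate 1, 0.360 to 1.45, lies above the TPM of 0.23. The tables listed 7 Fgf2 transcripts of 322 to 1240 bases, whereas GENCODE M21 also has Fgf2-208 of 5973 bases, so the level of Fgf2 does not rest on that long form. Its antisense neighbour Nudt6, which overlaps it by 5199 bases, held 93.9 and 80.3 counts. Fgf4 (ENSMUSG00000050917, chr7:144847367-144865243, plus strand), a ligand of the early embryo and the limb ridge, was at 0.14 and 0.03 TPM from 11 and 2 counts, at percentile 27.1 of named protein coding genes. Its count ratio of 5.35 for replicate 1 over replicate 2 had an interval of 1.17 to 49.7, too wide at these counts to give its size.

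**Figure D3:**
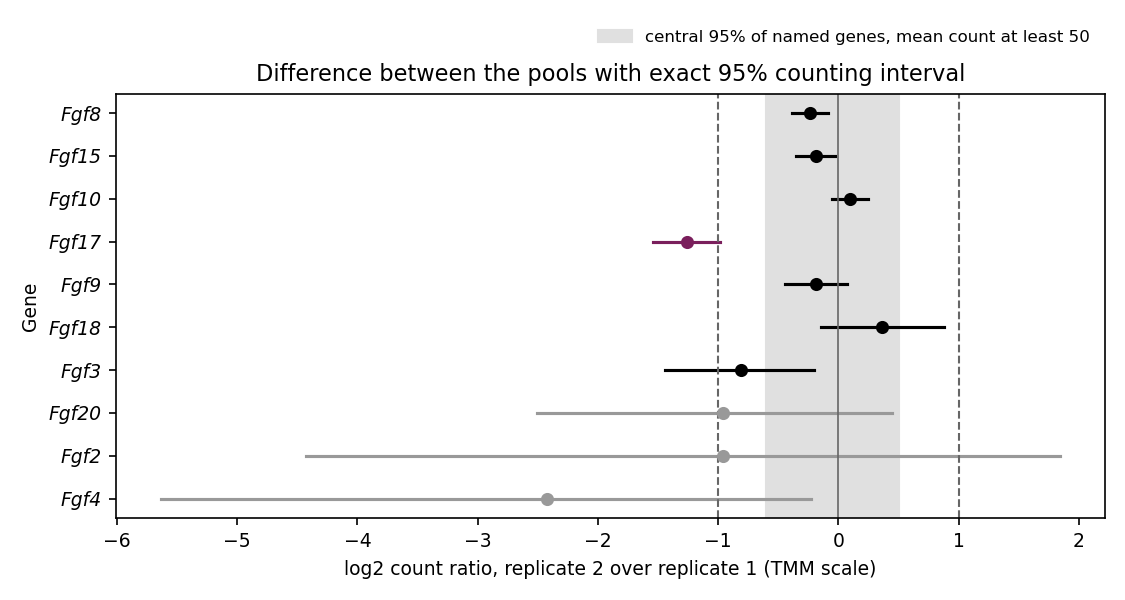
Log2 count ratio of replicate 2 over replicate 1 for each ligand gene, with its exact 95% counting interval as a line. Dashed lines mark 2-fold and the grey band the central 95% of named genes with mean counts of 50 or more. Fgf17 (purple) lies beyond 2-fold, and genes in grey had too few counts to be compared.

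In the order of mean levels, 4 of the 9 neighbouring pairs differed beyond the replicate spread, which was the SD of log2(TPM + 0.1) pooled over the 200 genes nearest in level. A pair was said to differ when its 95% interval left out 0 and both pools had the same sign. Fgf8 lay above Fgf15 by 1.27 (interval 0.99 to 1.55) on the log2 scale. Fgf15 lay above Fgf10 by 0.99 (interval 0.63 to 1.34). Fgf9 lay above Fgf18 by 0.92 (interval 0.39 to 1.46), and Fgf18 above Fgf3 by 1.40 (interval 0.55 to 2.24). The genes at the middle, Fgf10, Fgf17 and Fgf9, could not be ordered. Fgf17 was above Fgf9 by 0.70 in replicate 1 and below it, at -0.36, in replicate 2, and Fgf10 was below Fgf17, at -0.39, in replicate 1 and above it by 0.97 in replicate 2. Below Fgf3 no neighbours differed by this measure, and the interval of Fgf3 over Fgf20 ran from -0.19 to 2.52. With a pseudocount of 1 that pair did differ (interval 0.013 to 1.01), and with posterior mean TPM, which puts Fgf2 above Fgf20, Fgf20 differed from Fgf4 (interval 0.91 to 2.32). The pooled spread stands for genes of like level and is smaller than the spread of Fgf17 itself. In replicate 2 alone, with that spread assumed for the lone pool, only Fgf8 over Fgf15 and Fgf15 over Fgf10 still differed.

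Related sequences could in principle share reads, so 1 coding sequence a gene, of 154 to 245 codons, was aligned in pairs. For Fgf2, Fgf3, Fgf4 and Fgf20, with mean TPM below 1, the longest coding sequence was used. For the other genes it was that of the transcript with the highest mean share of its gene. The transcript used for Fgf2, Fgf2-204, had 0 counts in both pools. The one used for Fgf20, Fgf20-201, held 100% of its gene in replicate 1 and 37.7% in replicate 2. Fgf9 and Fgf20 were identical at 68.5% of aligned positions, Fgf8 and Fgf17 at 68.1%, Fgf8 and Fgf18 at 61.2% and Fgf17 and Fgf18 at 59.8%. Fgf3 and Fgf10, which share a subfamily, matched at 37.4%, below the 38.9% to 48.3% of the 40 pairs from different subfamilies. The longest run of identical bases was 20, between Fgf8 and Fgf17. In 8 of the 10 genes, all except Fgf15 and Fgf20, the expected counts of both pools were whole numbers. Fgf15 (681.47 and 582.09 counts) overlaps Gm26793 (71.53 and 57.91) on the other strand. Fgf20 (14 and 7.29 counts) overlaps Micu3 (623 and 503.71), also on the other strand. The source of the fractions was not tested.

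Fgf3, Fgf4 and Fgf15 lie next to each other on the plus strand of chromosome 7 within 62.9 kb, with 2.93 kb between Fgf3 and Fgf4 and 31.3 kb between Fgf4 and Fgf15. Their levels differed widely along that stretch. Fgf15 averaged 13.98 TPM, Fgf3 0.945 TPM and Fgf4, between them, 0.085 TPM. The next gene after Fgf15, LTO1, was at 21.1 and 21.3 TPM, and the next before Fgf3, Ano1, at 9.45 and 7.13 TPM.

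**Figure D4:**
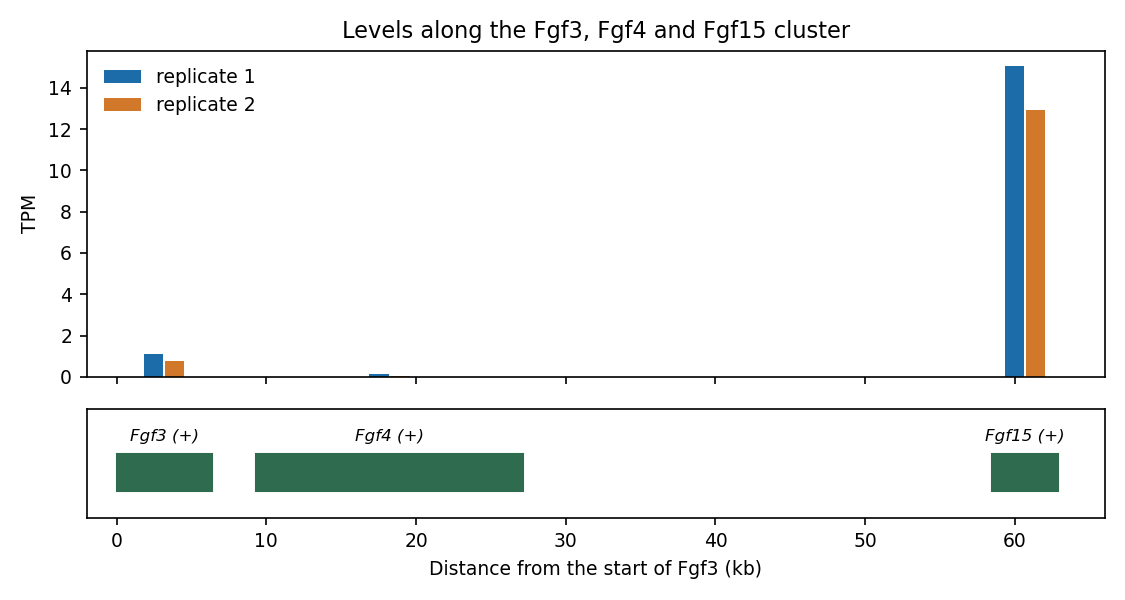
TPM of Fgf3, Fgf4 and Fgf15 in replicates 1 and 2 (bars) at the middle of each gene, above the extent of the genes in kb from the start of Fgf3. Fgf4, between the others, is at 0.14 and 0.03 TPM and its bars are hardly visible beside the 15.0 and 12.9 TPM of Fgf15.

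A leading transcript, the one with the highest share of its gene, could be compared for 4 detected ligand genes with more than 1 listed transcript: Fgf8, Fgf9, Fgf10 and Fgf18. It was the same in both pools for 4 of 4, near the 91.0% of all named genes of mean TPM at least 1 with at least 2 transcripts. For Fgf18 the intervals of the 2 forms overlapped in replicate 1. With no filter on low values it was the same for 5 of 7, with Fgf2 and Fgf20 led by different transcripts in the 2 pools.

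The other genes of the pathway were given by a list of 51 genes, of which 36 were detected, with a median of 12.4 TPM. Of all named protein coding genes 58.2% were detected, with a median over all of them of 3.57 TPM. The remaining 8 secreted FGF genes were all below the detection threshold. Fgf7 was the highest of them at 0.66 and 0.42 TPM, followed by Fgf5 at 0.52 and 0.43 TPM and Fgf1 at 0.52 and 0.41 TPM. Fgf6 and Fgf21 had 0 counts in both pools, where up to 3 counts a library cannot be told from 0. Over all 18 secreted FGF genes, the 10 described here held 97.4% of the summed TPM in each pool. Of the 4 intracellular FGF genes, whose products do not act as secreted ligands, Fgf13 was detected at 16.1 and 14.3 TPM and Fgf12 was the lowest at 0.48 and 0.68 TPM.

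Each of the receptors Fgfr2 and Fgfr1 was well above the ligands per length. Fgfr2 stood at 66.3 and 68.4 TPM and Fgfr1 at 60.3 and 51.9 TPM, beside 36.7 and 31.0 TPM for Fgf8. Fgfr3 was the one gene of the 38 compared in the list that was at least 2-fold apart, beside 1.24% of all named genes with mean counts of 50 or more. It stood at 10.9 TPM in replicate 1 and 30.5 TPM in replicate 2, which is 2.91-fold higher in replicate 2 and so opposite in direction to Fgf17. Fgfr4, on which FGF19-type hormones act in liver, was at 0.38 and 0.41 TPM. The 2 Klotho genes were lower still, while Fgf15 was the second ligand gene. Klb, whose product those hormones need, was at 0.02 and 0.01 TPM from 2 and 1 counts. Kl was at 0.05 and 0 TPM from 7 and 0 counts.

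Among 10 genes for heparan sulfate and FGF binding 9 were detected, against 58.2% of all named protein coding genes. The 10 ran from the sulfatase Sulf2 at 123 and 108 TPM to the carrier Fgfbp1, the undetected gene, at 1.29 and 0.68 TPM. All 10 transducers were detected, and the lowest was the exchange factor Sos1 at 4.02 and 3.78 TPM. The adaptor Frs2 was at 14.9 and 14.7 TPM. All 12 targets and feedback genes were detected as well, and 0 of 12 were at least 2-fold apart, which is near the 1.24% of all named genes. They ran from Dusp6, a phosphatase of the MAP kinases, at 107 and 97.8 TPM to Il17rd, a membrane inhibitor of FGF signaling, at 6.03 and 5.71 TPM. The transcription factor gene Etv5 was at 47.4 TPM in each pool, and Etv4 was at 16.0 and 13.3 TPM. The inhibitor Spry2 was at 35.4 and 33.5 TPM. The ratios furthest from 0 among the targets were those of Spry4 at -0.36 and Flrt2 at -0.33 on the log2 scale. The median log2 ratio of the targets was -0.08, beside -0.19 over the 7 ligand genes compared and 0.01 over all named genes compared.

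**Figure D5:**
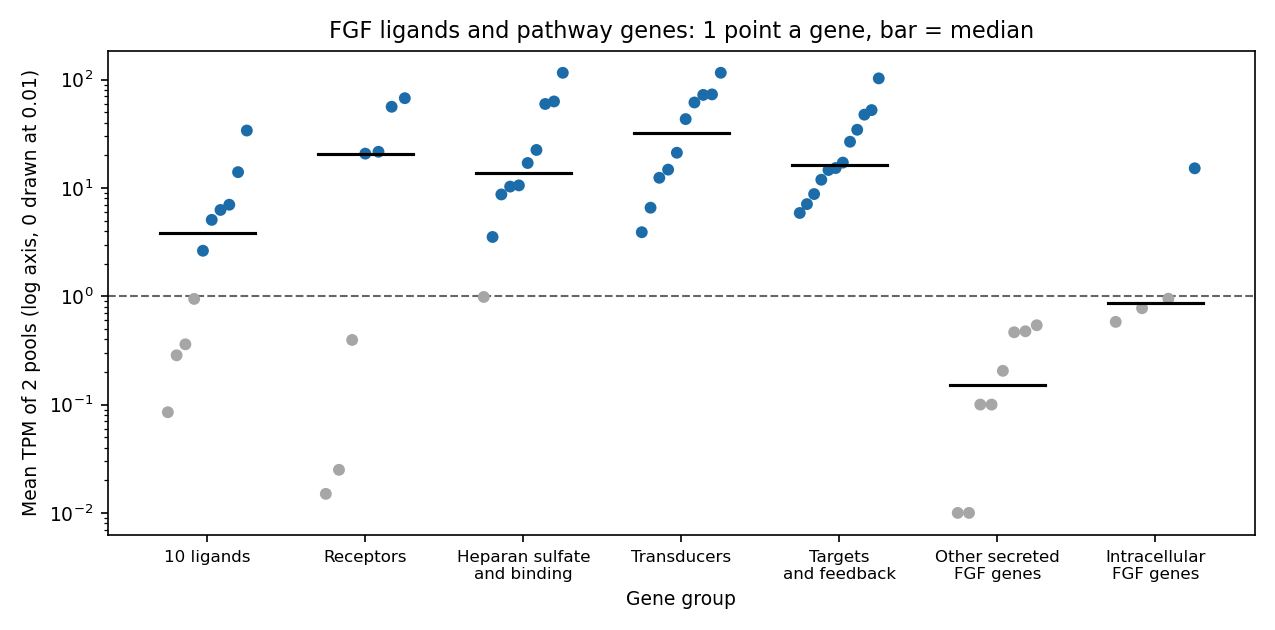
Mean TPM over the 2 pools (log axis, genes at 0 drawn at 0.01) of the 10 ligand genes and of the pathway genes by role, 1 point a gene, with the median of each group as a bar and the level of 1 TPM as a dashed line. Transducers and targets lie above 1 TPM throughout, and the other 8 secreted FGF genes all lie below it.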

How the data were processed

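Total RNA longer than 200 nucleotides was sequenced from 10 ng of RNA of each pool with spike-in controls, per the labels. The authors deposited, for each pool, expected counts (estimated, not normalised), TPM values per gene and transcript scaled over all features, the bounds of an interval for each TPM value (treated as a signal, its level not given in the sources used here), effective lengths in bases, and each transcript's share of its gene in percent. Per the labels and accompanying notes the assembly was mm10 and the annotation GENCODE M4. The aligner, the quantifier and the use of strand are not given in the sources used here. Genes with no symbol held 0.255% and 0.26% of gene counts and were not named. Spike-in controls held 3.46% and 3.94% of all counts.

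Symbols, coordinates and sequences came from GENCODE M21 (GRCm38), by identifier without version. Ratios between pools used expected counts rounded to whole numbers, TMM factors from edgeR 4.0.16, a prior count of 2 per library, genes with mean counts of 50 or more and a 2-fold threshold. Ratio intervals are exact Clopper-Pearson 95% intervals. The spread behind neighbouring levels used a pseudocount of 0.1. Coding sequences were aligned globally with Biopython 1.88. The ratio and spread calculations were tested on simulated data. Alternatives included DESeq2 1.42.0 size factors, the spike-in scale, posterior means, other thresholds and each pool left out. The labels call the pools biological replicates of different numbers of embryos, and 2 pools give only a rough estimate of spread, which may be partly technical.

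The genes followed and all lists were chosen with earlier results of these data known. The named genes were all 10 ligand genes, at least the highest and lowest of each pathway group and any at least 2-fold apart, overlapping or adjacent genes, and marker genes. Some genes that this rule takes are not reported here. The remaining marker lists, in replicates 1 and 2, summed to 17.5 and 13.0 TPM for muscle precursors (3 of 5 detected), 134 and 127 for endothelium (4 of 4) and 8176 and 7034 for embryonic red cells (3 of 3). Heart had 2 of 6 and hindbrain segments 4 of 5 detected, and no marker was at 0 in both pools.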

Additional observations from a re-analysis of the deposited data

How the results depend on the processing

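In all, 80 alternatives were tried. Fgf4 joined Fgf17 with no filter on low counts, so that 2 genes were at least 2-fold apart, and at a threshold of 1.5-fold Fgf3 joined it, again giving 2. The number of neighbouring levels that differed ran from 2 to 4 when either pool was left out, with the lone pool assumed to vary like other genes of its level, and it was 5 with a pseudocount of 1 and 5 with posterior mean TPM, against 4. The share of Fgf8 was 47.1% with posterior mean TPM, against 48.1%. All 30 alternative ratios of single genes stayed on the same side of 2-fold, and 1 changed sign: Fgf10 was at -0.12 on the spike-in scale, which shifts the median of all genes by -0.22 on the log2 scale. Of 20 alternative levels 4 moved beyond the spread: Fgf2 (0.89 TPM) and Fgf20 (0.475 TPM) with posterior means, and Fgf10 (7.64 TPM) and Fgf20 (0.393 TPM) when rescaled over genes alone. Without replicate 2, or at a threshold of 0.5 TPM, Fgf3 counted as detected, giving 7 genes. Of the pathway list 39 genes were detected at 0.5 TPM and 38 without replicate 2, against 36. With no filter on low values the leading transcript was the same for 5 of 7 genes, against 4 of 4. The share of Fgf8 transcripts with the 33-base extension was 59.3% with posterior means. The summed TPM of forebrain markers was higher in replicate 2 by 40.97, but the difference of replicate 2 minus replicate 1 was -13.8 TPM without Hes5. The sum without Hes5, the share without Fgf8-203, the protein coding restriction, and the spike-in and posterior mean ratios of single genes were chosen after seeing the data. No paired analysis was possible because there was 1 group. With fewer than about 3 counts in a library a gene cannot be told from 0, which limits Fgf2 and Fgf4.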

Other observations

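Fgf18 lies 4.9 kb from Npm1, which averaged 1332 TPM, beside 2.63 TPM for Fgf18. Fgf17 lies 155 bases from the next gene, Dmtn, which was at 7.12 TPM in replicate 1 and 6.10 TPM in replicate 2, while Fgf17 was at 8.89 and 3.63 TPM. Fgf8 lies between Fbxw4, at 4.10 and 4.15 TPM, and Npm3, at 10.2 and 10.4 TPM. Fgf20 overlaps Micu3, a gene on the other strand at 10.1 and 8.26 TPM, by 874 bases.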
